A study of Mus musculus with 6 samples.

Results

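The genes described are 9 transcriptional regulators grouped for their known roles in sensory neurons: the POU genes Pou4f1, Pou4f2 and Pou4f3, the Islet genes Isl1 and Isl2, the Tlx genes Tlx2 and Tlx3, the paired-type homeobox gene Prrxl1 (also called Drg11 or Drgx) and the cofactor gene Eya2. They were taken by symbol from the 22869 gene symbols of the deposited count table. All 9 were found, each with 1 transcript row, and all 9 passed the filter on low counts. The study sequenced RNA of mouse embryos at stage E14.5, of mixed strain. For the 3 mechanoreceptor libraries (2, 8 and 9), dorsal root ganglia were taken from embryos of the genotype Ret-CreERT2; Rosa26-Tdtomato, whose mothers were given 4-hydroxytamoxifen by mouth at 1.5 or 2 mg so that Ret+ RA mechanoreceptors were labelled, and the labelled cells were collected by flow sorting. The 3 midline libraries (2, 3 and 5) came from wild-type embryos with no such treatment named, as cells derived from the roof plate that were cut by laser from the midline of the dorsal column of the spinal cord. Genotype, drug, tissue and collection method changed together between the groups and cannot be told apart. How many embryos entered a library, which dose each mother had, and whether replicates were separate litters is not stated, so the p-values speak only to the spread among these 6 libraries, some of which may be technical.

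POU4F proteins bind DNA through a POU-specific domain and a homeodomain, and Islet proteins through a homeodomain beside LIM domains that recruit partner proteins. In mouse sensory ganglia Pou4f1 and Isl1 switch on as neurons leave the cell cycle, act together to end the neurogenic programme, and are needed for the genes of sensory subtypes such as Runx1 and Runx3. Tlx3 and Prrxl1 act in sensory neurons and also in excitatory neurons of the dorsal horn, and Isl1 and Isl2 are also genes of motor neurons. Eya proteins carry no DNA-binding domain of their own and work with homeodomain proteins of the sine oculis family in sensory placodes, ganglia and muscle.

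The promoters of 6 of the 9 genes were in the RefSeq promoter table of GRCm38.p6 (Pou4f1, Pou4f2, Isl1, Isl2, Tlx3 and Prrxl1). The 250 bases before the start were searched on both strands for 12 motifs. They were the CCAAT box, the homeodomain core ATTA and the longer TAATTA and AATAAT, the longer homeodomain forms ATAATTAAT and ATGANTAAT, the TATA box core TATAA, the E-box CANNTG with its form CAGCTG, the CRE element TGACGTCA with its core TGACG, and the GC box GGGCGG. Matches of a longer form overlap those of the shorter ones it holds. CCAAT was found 2 times in each of Isl1, Isl2 and Tlx3 and in no other of the 6, against at least 2 matches in 10.1% and at least 1 in 33.8% of the 32851 promoter windows of the table. CCAAT was singled out of the 12 after the matches had been counted, so its place in these windows is a description with no test. The 3 windows are shown since they set both Islet genes beside the Tlx gene, with CCAAT in capitals. They lie at chr13:116309689-116309938 (minus strand), chr9:55540899-55541148 (plus strand) and chr11:33203589-33203838 (minus strand), while the count table is on mm9.
Isl1: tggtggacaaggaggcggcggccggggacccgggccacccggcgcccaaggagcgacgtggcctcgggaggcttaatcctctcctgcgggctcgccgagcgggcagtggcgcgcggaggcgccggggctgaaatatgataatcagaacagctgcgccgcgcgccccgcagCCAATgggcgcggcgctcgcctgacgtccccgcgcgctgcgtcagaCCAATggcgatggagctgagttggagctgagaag
Isl2: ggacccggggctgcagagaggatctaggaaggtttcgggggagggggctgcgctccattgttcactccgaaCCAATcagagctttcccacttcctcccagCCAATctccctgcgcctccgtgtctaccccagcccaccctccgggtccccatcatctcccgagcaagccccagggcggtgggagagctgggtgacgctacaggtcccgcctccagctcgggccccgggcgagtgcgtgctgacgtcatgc
Tlx3: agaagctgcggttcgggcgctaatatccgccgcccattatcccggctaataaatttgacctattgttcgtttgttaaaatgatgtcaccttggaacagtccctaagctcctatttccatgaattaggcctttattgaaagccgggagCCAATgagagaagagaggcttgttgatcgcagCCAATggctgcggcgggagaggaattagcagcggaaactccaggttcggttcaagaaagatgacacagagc
The matches began 80 and 34 bases before the start in Isl1, 179 and 150 bases before it in Isl2, and 103 and 71 bases before it in Tlx3. The windows differed in base content, with 71.2%, 66.8% and 48.8% G and C in Isl1, Isl2 and Tlx3 against a median of 52.4% over all windows. ATTA, the core that many homeodomains bind, was found 5 times in Tlx3 and 2 times in Isl1 and in none of the other 4 windows, against at least 1 match in 54.9% of all windows. TATAA was found once in Pou4f2, 30 bases before its start, and once in Pou4f1, 246 bases before its start, against 22.8% of all windows. Of the other 9 motifs, GGGCGG was found in 4 of the 6 windows (32.7% of all windows), CANNTG (66.2%), CAGCTG (13.0%) and TGACG (17.8%) in 2 each, TGACGTCA (1.55%) in Isl2 alone, and TAATTA (4.84%), ATAATTAAT (0.259%), ATGANTAAT (0.661%) and AATAAT (10.6%) in none.

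Total counts were 12031898 to 13801474 in the mechanoreceptor and 5599811 to 8081153 in the midline libraries, and the detection floor of 3 counts stood at 0.346 to 0.669 CPM (the count scaled to TMM-normalised library size). Ret, which drove the label, stood at 988, 1036 and 788 CPM in mechanoreceptor libraries 2, 8 and 9 and at 13.6, 41.9 and 20.8 CPM in midline libraries 2, 3 and 5, so the groups matched their labels for this gene. Of 16 sensory neuron markers outside the 9 genes, mechanoreceptors had the higher level in 13 and the midline in 1. All 10 roof plate markers tested (11 listed) were higher in the midline, as were all 8 dorsal interneuron transcription factor genes tested (17 listed). So were 12 of 12 tested genes of skeletal muscle and myoblasts (16 listed). With limma-voom 2 of the 12 were called, Pax3 and Pax7, and Pax3 was highest in midline library 5 at 48.6 CPM. Genes at or near 0 in mechanoreceptors, such as Wnt1, Lhx2, Lhx5 and Gbx2 with 0 counts there, passed the filter only through the midline libraries. Their direction was thus fixed in advance. Midline library 2 stood apart through the muscle genes, with a sum of 14810 CPM where midline libraries 3 and 5 had 195 and 1532 CPM. Midline library 3 stood apart through the dorsal interneuron factors, with a sum of 771 CPM where libraries 2 and 5 had 116 and 263 CPM.

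Of the 9 genes, 8 had higher levels in mechanoreceptors and only Eya2 had a higher level in the midline (quasi-likelihood F test of edgeR, adjusted p under 0.05). Pou4f3, with 0 midline counts, passed the filter through the mechanoreceptor libraries alone and could only go that way. Pou4f2, Isl2, Tlx2, Tlx3 and Prrxl1 were too scarce in the midline to pass through that group. They also entered the test through the mechanoreceptor libraries, where they were high. Their part in the count of 8 and in the median fold change is thus not independent of the filter. Among all 15314 genes tested, 18.8% were called higher in mechanoreceptors, 18.9% higher in the midline and 37.8% in either direction. In all 9 genes the 3 libraries of one group lay above the 3 of the other, a pattern that 27.3% of all genes tested had toward mechanoreceptors and 27.5% toward the midline. Log2 fold changes are mechanoreceptor minus midline, so that a positive value is higher in mechanoreceptors, and their median was 5.42 over the 9 genes against -0.049 over all genes tested. These are bulk samples, in which fewer cells of a type and less RNA per cell cannot be told apart.

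**Figure D1:**
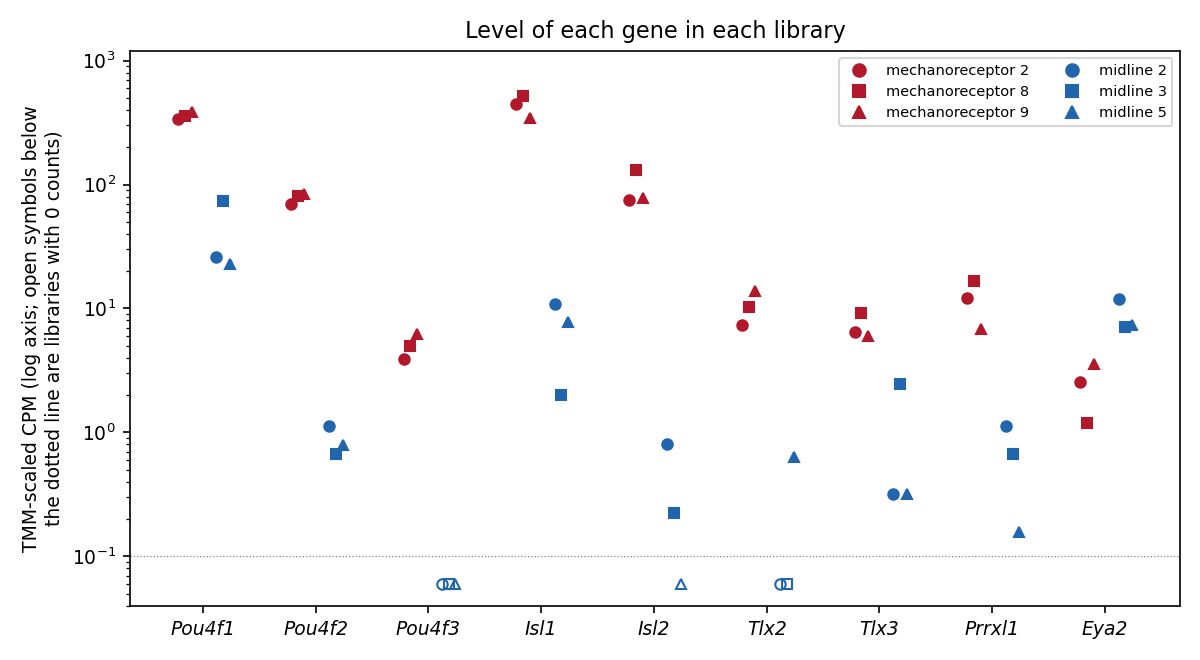
Level of each of the 9 genes in TMM-scaled CPM on a log axis, with 1 symbol per library (red for mechanoreceptor, blue for midline) and libraries with 0 counts as open symbols under the dotted line. The red symbols lie above the blue ones in 8 genes and below them in Eya2, and Pou4f3 has 0 counts in all 3 midline libraries.

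Pou4f1, which encodes the POU factor of nearly all early sensory neurons, stood at 340, 358 and 386 CPM in mechanoreceptor libraries 2, 8 and 9 and at 26.1, 73.4 and 22.9 CPM in midline libraries 2, 3 and 5. The groups did not overlap, and the lowest mechanoreceptor library was 4.63 times the highest midline library. It was the steadiest of the 9 genes in the sorted cells, with a coefficient of variation of 6.44% over 3 libraries, where counting alone gives 1.83%. The means were 361 ± 23.3 and 40.8 ± 28.3 CPM (SD, n = 3), the log2 fold change was 3.15 (SE 0.45, adjusted p = 0.00188). Midline library 3 held more Pou4f1 than the other two midline libraries, and without it the log2 fold change was 3.89.

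Pou4f2, the paralog best known from retinal ganglion cells in mice, had 69.1, 81.4 and 83.3 CPM in mechanoreceptor libraries 2, 8 and 9. In midline libraries 2, 3 and 5 it had 7, 3 and 5 counts, or 1.12, 0.669 and 0.789 CPM. Unlike Pou4f1, it showed no excess in midline library 3. Its log2 fold change was 6.45 (SE 0.30, adjusted p = 6.43e-05), with means of 77.9 ± 7.70 and 0.860 ± 0.235 CPM (SD, n = 3), and it stayed from 6.33 to 6.72 when any library was left out. Only 17 of the 15314 genes tested had a larger fitted log2 fold change.

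Pou4f3, the paralog that hair cells of the inner ear need, was the scarcest of the POU genes, with 34, 42 and 49 counts in mechanoreceptor libraries 2, 8 and 9 and 0 counts in all midline libraries. In CPM this was 3.92, 4.99 and 6.26 in the sorted cells. Against a floor of 3 counts over the midline group the gene was at least 28.5-fold higher in mechanoreceptors (adjusted p = 0.00298). This bound allows for counting error in the midline only, not for the spread between libraries. With 1 library left out the bound lay between 17.9-fold, without midline library 5, and 31.8-fold, without mechanoreceptor library 2.

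Isl1, the LIM homeodomain factor that sensory and motor neurons share, had the highest mean CPM of the 9 genes in mechanoreceptors, at 446, 522 and 344 CPM in libraries 2, 8 and 9, although Pou4f1 was higher in library 9. It stood at 10.9, 2.01 and 7.73 CPM in midline libraries 2, 3 and 5. The lowest mechanoreceptor library was 31.5 times the highest midline library. The means were 437 ± 89.5 and 6.88 ± 4.51 CPM (SD, n = 3), a log2 fold change of 5.96 (SE 0.55, adjusted p = 0.00042). Here midline library 3, which was highest for Pou4f1, was the lowest of the 3.

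Isl2, its paralog, had 649, 1101 and 609 counts in mechanoreceptor libraries 2, 8 and 9 (74.8, 131 and 77.8 CPM) and 5, 1 and 0 counts in midline libraries 2, 3 and 5. Mechanoreceptor library 8 stood well above the other two, so that the coefficient of variation was 33.3%. The log2 fold change was 8.003 (SE 0.64, adjusted p = 0.0003), and of all genes tested only Pou4f3 and Mettl7a3, both with 0 midline counts, had a larger fitted one. The size of the difference rests on 6 midline counts. The ratio of summed counts was 269-fold with an exact 95% interval of 123 to 734, which covers counting error only. Without midline library 2 a single midline count was left and the ratio was 1024-fold (183.6 to 40470). Without midline library 5 it was 169-fold (77.6 to 461). The annotation of GRCm38 has a gene on the opposite strand that overlaps Isl2, and 2 that overlap Eya2, none of them in the deposited table, and since strand was not stated their reads could not be told apart.

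The Tlx genes were scarce in both groups. Tlx2, a homeobox gene known in mice for enteric neurons, had 64, 87 and 109 counts in mechanoreceptor libraries 2, 8 and 9 (7.38, 10.3 and 13.9 CPM) and 0, 0 and 4 counts in midline libraries 2, 3 and 5. All of its midline counts thus came from 1 library. Its log2 fold change was 5.42 (SE 0.93, adjusted p = 0.00376), and the ratio of summed counts was 44.5-fold. Its 95% interval of 17.2 to 164.5 covers counting error only, not the spread between libraries. Without midline library 5 the midline counts were 0 and the gene was at least 37.3-fold higher in mechanoreceptors, again with counting error only. Without midline library 2 the ratio was 28.2-fold.

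Tlx3, the selector of the excitatory fate in the dorsal horn and a gene of sensory neurons, had 56, 77 and 47 counts in mechanoreceptor libraries 2, 8 and 9 (6.46, 9.15 and 6.002 CPM) and 2, 11 and 2 counts in midline libraries 2, 3 and 5 (0.321, 2.45 and 0.316 CPM). Midline library 3 again held the most, and the lowest mechanoreceptor library was only 2.45 times that library. Its log2 fold change was 2.88 (SE 0.80, adjusted p = 0.0243), the smallest of the 8 genes higher in mechanoreceptors. The call was lost without mechanoreceptor library 2, 8 or 9 or midline library 5 (adjusted p = 0.0536 to 0.0768). Without midline library 3 the log2 fold change was 4.43 (adjusted p = 0.00247), and limma on the log2 values of the deposit gave 4.09 (adjusted p = 0.00748).

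Prrxl1, whose product is needed in mice for the wiring of pain-sensing afferents and their dorsal horn targets, had 12.1, 16.7 and 6.77 CPM in mechanoreceptor libraries 2, 8 and 9. In midline libraries 2, 3 and 5 it had 7, 3 and 1 counts, or 1.12, 0.669 and 0.158 CPM. It was among the most uneven of the 9 genes in the sorted cells, with a coefficient of variation of 42.1% where counting gives 10.02%. The groups still did not overlap (log2 fold change 4.16, SE 0.69, adjusted p = 0.00335). Without midline library 2 the log2 fold change was 4.92.

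**Figure D2:**
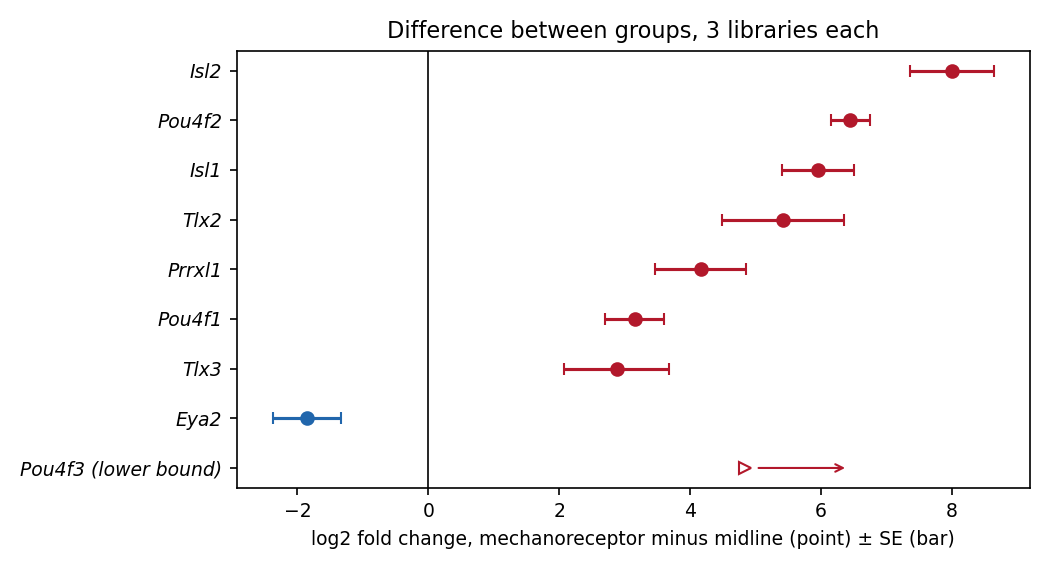
Log2 fold change, mechanoreceptor minus midline, with bars of 1 SE from the edgeR fit over 3 libraries a group. Isl2 lies farthest to the right at 8.003, Tlx3 lowest of the 7 fitted genes higher in mechanoreceptors at 2.88 (with the call lost in 4 of 6 fits that leave out a library), Eya2 alone lies left of 0, and Pou4f3 is drawn as the lower bound of 28.5-fold with an arrow.

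To compare genes with each other, CPM was divided by transcript length in kilobases, using the GENCODE transcript paired with each RefSeq accession. In mechanoreceptors the order by CPM per kilobase was Isl1 (174 ± 35.6), Pou4f1 (81.3 ± 5.24), Isl2 (51.0 ± 17.0), Pou4f2 (24.3 ± 2.40), Tlx2 (8.53 ± 2.65), Prrxl1 (7.38 ± 3.10), Tlx3 (4.70 ± 1.11), Pou4f3 (2.14 ± 0.496) and Eya2 (0.989 ± 0.487), as mean ± SD over 3 libraries. Down to Pou4f2 and Tlx2 each neighbour pair kept its order in every library without overlap. Tlx2 (5.97 to 11.3), Prrxl1 (4.204 to 10.4) and Tlx3 (3.92 to 5.97) lay close together: Prrxl1 overlapped both of the others, and Tlx2 was above Tlx3 in each library, with its lowest value (5.972) barely above the highest of Tlx3 (5.967). Below them, Pou4f3 lay under all 3 and Eya2 under Pou4f3 without overlap. Among the 14997 tested genes with a length, Isl1 stood at the percentile 97.6 and Pou4f1 at 93.7 of mean CPM per kilobase in mechanoreceptors, while Tlx3 stood at 37.7 and Pou4f3 at 25.1.

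In the midline the order differed. Pou4f1 led at 5.88, 16.5 and 5.15 CPM per kilobase in libraries 2, 3 and 5, and Eya2 followed at 4.83, 2.90 and 3.02. Isl1 came next at 4.33, 0.798 and 3.07 and overlapped Eya2 in its range. Pou4f1 stood at the percentile 52.0 of all tested genes in the midline, Eya2 at 26.8 and Isl1 at 21.4, and the other 6 at 3.4 or lower.

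The makeup of the families per length was even among the sorted libraries. Pou4f1 gave 76.7%, 74.6% and 75.2% of the summed POU4F level per kilobase in mechanoreceptor libraries 2, 8 and 9, Pou4f2 21.6%, 23.5% and 22.5%, and Pou4f3 1.67%, 1.96% and 2.30%. Isl1 gave 81.5%, 74.6% and 76.5% of the Islet level. Tlx2 gave 58.6%, 58.4% and 74.2% of the Tlx level, so library 9 differed from the other two there.

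In the midline the POU4F makeup was more one-sided. Pou4f1 gave 94.4%, 98.8% and 95.4% of the POU4F level in midline libraries 2, 3 and 5. Per kilobase, Pou4f1 stood 3.18 to 3.54 times above Pou4f2 in the mechanoreceptor libraries and 16.8, 79.05 and 20.9 times above it in midline libraries 2, 3 and 5. The log2 ratio of their counts (with 0.5 added) was 2.22 ± 0.079 in mechanoreceptors and 5.24 ± 1.15 in the midline (SD, n = 3). The groups did not overlap, but a two-sided exact permutation test over 3 against 3 libraries cannot give a p below 0.1, and p was 0.1 here and for the other two ratios compared, Pou4f1 to Isl1 and Isl1 to Isl2 (0.1 for each after Benjamini-Hochberg adjustment over the 3 pairs). Pou4f1 stood at 0.389 to 0.636 times Isl1 per kilobase in mechanoreceptors, and at 1.36, 20.7 and 1.68 times Isl1 in midline libraries 2, 3 and 5.

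**Figure D3:**
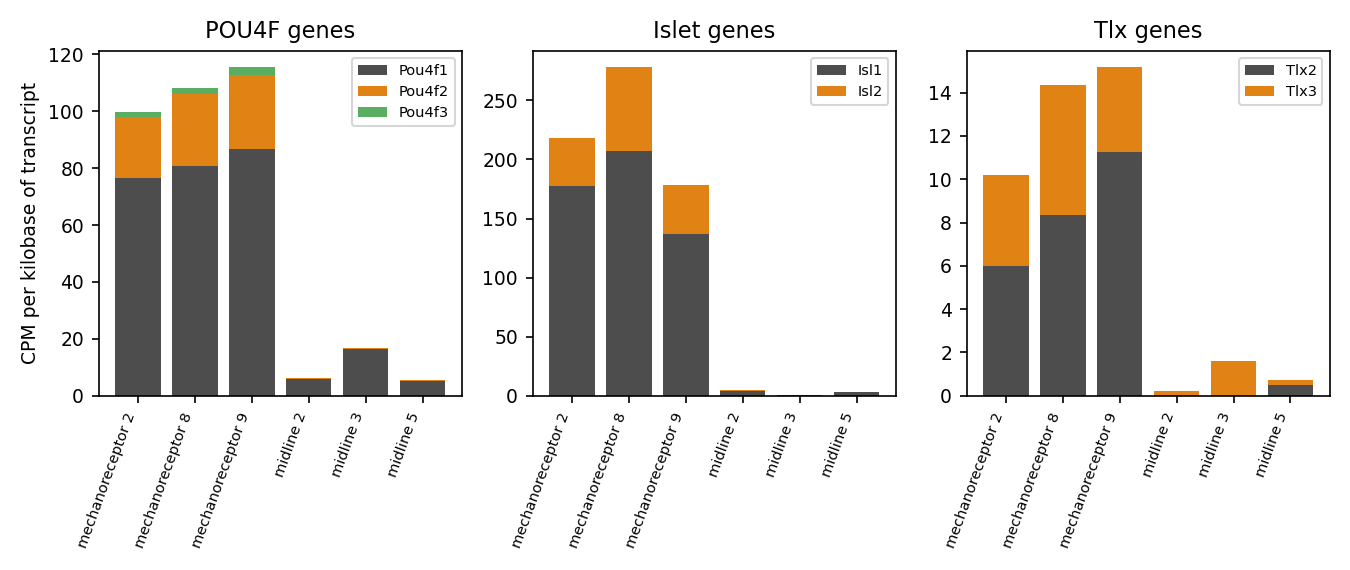
Stacked bars of CPM per kilobase of transcript for the POU4F, Islet and Tlx genes in each of the 6 libraries, with a separate vertical axis for each family. Pou4f1 makes up 74.6% to 76.7% of the POU4F bar in mechanoreceptor libraries and 94.4% to 98.8% in midline libraries.

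The 9 genes split by which sorted library held the most. Pou4f1, Pou4f2, Pou4f3, Tlx2 and Eya2 were highest in mechanoreceptor library 9, and Isl1, Isl2, Tlx3 and Prrxl1 in library 8. For Isl1, Tlx3 and Prrxl1 library 9 was also the lowest of the 3. The spread was small in Pou4f1 (highest over lowest library 1.14-fold) and Pou4f2 (1.21-fold) and larger in Isl2 (1.75-fold), Tlx2 (1.89-fold), Prrxl1 (2.48-fold) and Eya2 (3.01-fold).

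The levels left in the midline libraries also differed in pattern from gene to gene. As a share of the mechanoreceptor mean, Pou4f1 reached 7.24%, 20.3% and 6.33% in midline libraries 2, 3 and 5 and Tlx3 4.45%, 34.1% and 4.38%. Isl1 reached 2.49%, 0.459% and 1.77%, Pou4f2 1.44%, 0.859% and 1.01%, and Isl2 0.849%, 0.236% and 0%. Pou4f1 and Tlx3 were thus highest in midline library 3, and Isl1, Isl2, Pou4f2, Prrxl1 and Eya2 in library 2. The Tlx3 pattern rests on few reads, with 11 counts in library 3 and 2 in each of the others. So do those of Pou4f2 (7, 3 and 5 counts in libraries 2, 3 and 5), Prrxl1 (7, 3 and 1) and Isl2 (5, 1 and 0). Pou4f1 had 329 counts in library 3 against 163 and 145.

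Of the 16 sensory neuron markers outside the 9 genes, 5 were highest in midline library 2, 9 in library 3 and 2 in library 5. Prph, the peripheral neuron filament, stood at 1.29%, 0.204% and 0.545% of its mechanoreceptor mean in midline libraries 2, 3 and 5 and P2rx3, an ATP-gated channel, at 0.703%, 0.251% and 0.266%, both highest in library 2. The general neuronal genes Stmn2 (6.86%, 23.9% and 7.66%) and Elavl4 (8.97%, 35.4% and 12.2%) were highest in library 3, and so were Ret (1.45%, 4.48% and 2.22%), Avil (0.903%, 1.39% and 0.889%), Nefl (2.16%, 3.86% and 1.45%) and Nefh (1.31%, 1.73% and 0.645%), which are used as sensory markers here. The dorsal interneuron factors moved with library 3 too: Pax2 stood at 16.04, 198 and 70.2 CPM in midline libraries 2, 3 and 5 and Lhx1 at 10.1, 100.8 and 20.05 CPM. Of the 17 listed factors 10 were highest in library 3, and 9 of the 17 had 0 counts in all mechanoreceptor libraries. Lbx1 and Ptf1a, which define dorsal interneuron classes at earlier stages, had at most 0.223 CPM in any midline library. The motor neuron genes Mnx1, Lhx3, Lhx4, Chat and Slc18a3 lay between 0 and 2.53 CPM in the midline, Slc5a7 at 3.85, 4.02 and 2.68 CPM and Mecom at 28.1, 8.92 and 14.7 CPM in libraries 2, 3 and 5. Isl1 and Isl2 were themselves low there. In library 3 Slc18a3 had 11 counts (2.45 CPM) and Isl1 had 9 (2.01 CPM), too few to put them in order. The part of dorsal horn neurons, motor neurons, ganglion cells or other cells in the midline levels of these genes was not tested.

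**Figure D4:**
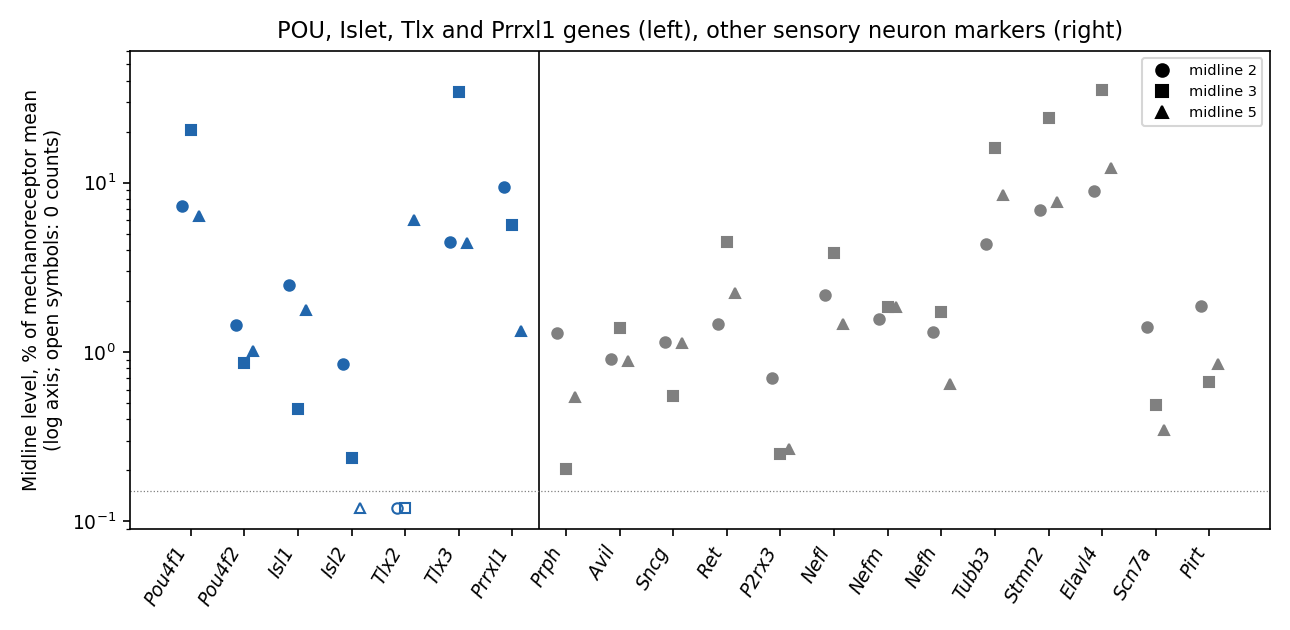
Level in each midline library as a percent of the gene's mechanoreceptor mean, on a log axis, for 7 of the 9 genes (left of the line) and for the 13 other sensory neuron markers higher in mechanoreceptors (right). Pou4f1 and Tlx3 have their highest symbol in midline library 3 at 20.3% and 34.1%, as Stmn2 and Elavl4 do, while Isl1 has its lowest symbol there at 0.459%.

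Eya2 went the other way from the 8 DNA-binding factors. It had 22, 10 and 28 counts in mechanoreceptor libraries 2, 8 and 9 (2.54, 1.19 and 3.58 CPM) and 74, 32 and 47 counts in midline libraries 2, 3 and 5 (11.9, 7.14 and 7.42 CPM). The groups did not overlap, with the lowest midline library at 1.996 times the highest mechanoreceptor library. The means were 2.43 ± 1.20 and 8.81 ± 2.65 CPM (SD, n = 3), a log2 fold change of -1.85 (SE 0.53, adjusted p = 0.026). Leaving out mechanoreceptor library 2 or 8 or midline library 2 or 5 ended the call (adjusted p = 0.0546 to 0.0856), as did limma on the log2 values of the deposit (-1.19, adjusted p = 0.096). In the authors' deposited table Eya2 had a log2 fold change of 1.59 toward the midline at a false discovery rate of 0.0395.

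The relatives of Eya2 and its partners were read beside it. Over all genes tested, 18.9% were called higher in the midline and 18.8% higher in mechanoreceptors. Of 8 tested genes of the Eya, sine oculis and Dach families other than Eya2, the midline had the higher level in 3 (Eya1, Eya4 and Six5), mechanoreceptors in 0, and 5 did not pass. The 3 became 1 with limma-voom or limma on the deposit's log2 values and without mechanoreceptor library 8 or midline library 2. Eya1 stood at 50.2, 8.70 and 9.15 CPM in midline libraries 2, 3 and 5 against 1.15 to 5.19 CPM in mechanoreceptors, and Eya4 at 41.5, 2.90 and 6.63 CPM against 0.713 to 1.92 CPM. Both were highest in midline library 2, and each lost its call in 5 of 13 alternatives, including without that library (Eya1 log2 fold change -1.53, adjusted p = 0.0999, and Eya4 -2.03, adjusted p = 0.0804). Six5 was even over the midline libraries (26.8, 16.3 and 30.6 CPM against 0.511 to 2.65 CPM in mechanoreceptors, log2 fold change -3.75, adjusted p = 0.0026).

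Six4, a sine oculis gene known from sensory ganglia and muscle, depended on that library as well. It had 22.4, 28.2 and 21.3 CPM in mechanoreceptor libraries 2, 8 and 9 and 26.5, 3.79 and 6.63 CPM in midline libraries 2, 3 and 5. With all 6 libraries it missed the threshold (log2 fold change 0.95, adjusted p = 0.266). Without midline library 2 it was called higher in mechanoreceptors (log2 fold change 2.20, adjusted p = 0.00312). Eya2 without that library was still on the midline side, at a log2 fold change of -1.55 (adjusted p = 0.0856), and midline library 2 exceeded the other two by less in Eya2 than in Eya1 and Eya4. The muscle genes Myh3 (4302, 26.5 and 478 CPM in midline libraries 2, 3 and 5) and Actc1 (2984, 31.4 and 267 CPM) had the same highest library. Their part in the levels of the Eya genes and Six4 was not tested.

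**Figure D5:**
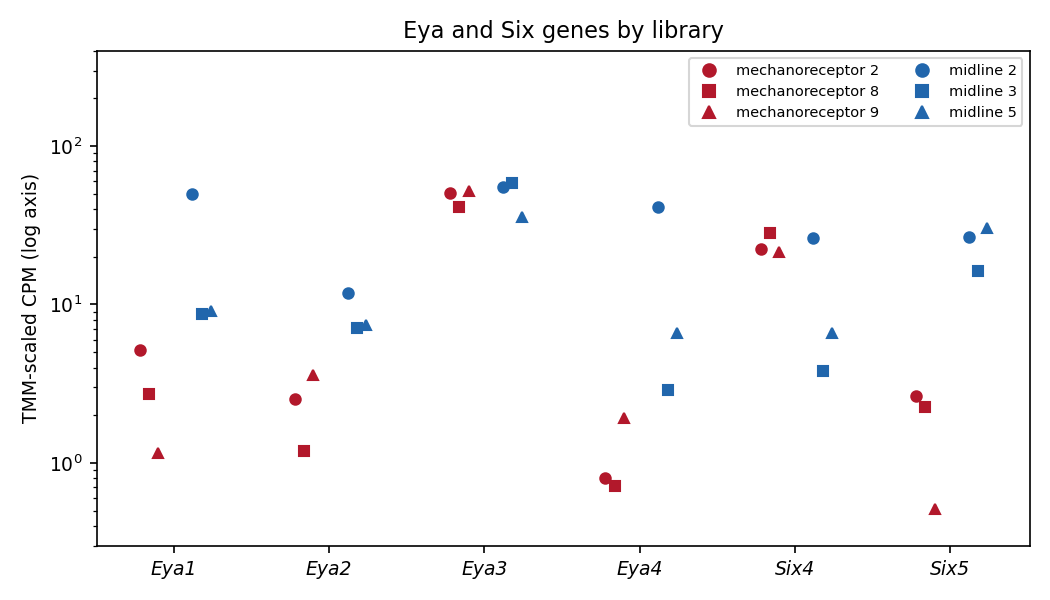
TMM-scaled CPM of the Eya1 to Eya4, Six4 and Six5 genes on a log axis, 1 symbol per library. Midline library 2 (blue circles) stands above the other two midline libraries in Eya1, Eya2, Eya4 and Six4, and Six4 passes the test only when that library is left out among the fits run.

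Other genes of the same families were mixed. The shares over all genes tested were 18.8% called higher in mechanoreceptors and 18.9% called higher in the midline. Of 7 tested POU genes outside the POU4F class, mechanoreceptors had the higher level in 1 and the midline in 3. The 3 were Pou3f2 (log2 fold change -4.92), Pou3f3 (-5.62) and Pou3f4 (-3.57), POU factors of neural progenitors and spinal neurons. Their mechanoreceptor means were 0.897, 0.539 and 0.358 CPM, and they passed the filter through the midline libraries, where they were high. The widely expressed Pou2f1 did not pass (-0.52, adjusted p = 0.0693), but was called higher in the midline under 3 of 13 alternatives (adjusted p = 0.0142 to 0.0433), and Pou3f4 lost its call under 1 (0.0733). Of 15 tested LIM homeobox genes and LIM cofactors, the midline had the higher level in 8 and mechanoreceptors in 1. Ldb1, the adaptor that joins LIM homeodomain proteins such as Isl1 to their partners, stood at 75.1 ± 19.4 and 65.9 ± 9.38 CPM in mechanoreceptors and midline (SD, n = 3) and did not pass (log2 fold change 0.19, SE 0.24, adjusted p = 0.559), while the adaptor gene Ldb2 had more in the midline (14.2 ± 6.86 against 108 ± 58.8 CPM, a log2 fold change of -2.93, adjusted p = 0.00393). Lmo1, the LIM-only gene higher in mechanoreceptors (log2 fold change 1.91, adjusted p = 0.0217), lost its call in 3 fits that leave out a library.

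Genes that mouse studies place downstream of Pou4f1, Isl1 or the zinc finger factor Klf7 were higher in mechanoreceptors or did not pass. Among all genes tested 18.8% were called higher in mechanoreceptors, and the median log2 fold change was -0.049 against 2.39 over the 14 listed. Of these 14, Klf7 itself included, the midline had the higher level in 0, 6 did not pass, and mechanoreceptors had the higher level in 8. Avil, an actin regulator of sensory neurons (515 ± 34.4 against 5.46 ± 1.46 CPM, SD, n = 3; log2 fold change 6.57, adjusted p = 4.58e-05), and the sodium channel gene Scn9a (916 ± 234 against 19.7 ± 7.16 CPM, log2 fold change 5.54, adjusted p = 0.000192) were among them, as was Klf7 itself (246 ± 30.1 against 59.9 ± 19.5 CPM, log2 fold change 2.04, adjusted p = 0.0016). Runx1 (log2 fold change 0.011, adjusted p = 0.988), Runx3 (0.91, adjusted p = 0.431) and Ntrk3 (0.035, adjusted p = 0.941) did not pass. Without midline library 2 Runx3 passed (adjusted p = 0.0459). Of the 8, Avil, Prph and P2rx3 were also counted among the 16 sensory neuron markers.

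Of 10 tested genes of excitatory neurons listed beside Tlx3, mechanoreceptors had the higher level in 4 and the midline in 1 (median log2 fold change 1.19). Over all genes tested the shares called were 18.8% toward mechanoreceptors and 18.9% toward the midline, with a median of -0.049. The vesicular glutamate transporter genes Slc17a6 (271 ± 64.8 against 51.4 ± 44.3 CPM, log2 fold change 2.41, adjusted p = 0.0165) and Slc17a7 (14.0 ± 6.19 against 0.938 ± 0.804 CPM, 3.87, adjusted p = 0.0061) were higher in mechanoreceptors, the first with its call lost without mechanoreceptor library 2 or 8. Slc17a6 was highest in midline library 3 among the midline libraries (38.7, 100.6 and 14.8 CPM), the library that also led for Tlx3. Ebf2 was higher in the midline (log2 fold change -2.41, adjusted p = 0.00309), while Ebf3 did not pass (-0.41, adjusted p = 0.488).

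The genes whose levels over the 6 libraries lay nearest to each of the 9 were found by Euclidean distance in log2 CPM, which weighs level and pattern together. Nearest to Pou4f1 were the calcium pump gene Atp2b2 (distance 0.76), the complexin gene Cplx1 and the adhesion gene Cntn2. Nearest to Isl1 were Ppp1r1c (distance 1.12), Pirt and the potassium channel gene Kcna1, and nearest to Pou4f2 was the acid-sensing channel gene Accn3 (1.31), named Asic3 today. Isl2 had no close neighbour, the nearest being the homeobox genes Onecut3 (2.07) and Shox2 (2.26). Prrxl1 lay nearest to Slc17a7 (0.85), with B3gnt8 the third, Tlx3 to Slc5a5 (1.08), Ttr and Gm5868, Tlx2 to Krt25 (1.599), B3gnt7 and AI115009, and Pou4f3 to Mettl7a3 (1.33). Eya2 lay nearest to 6230427J02Rik (0.50) and Apobec3 (0.59).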

How the data were processed

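The authors deposited read counts as whole numbers for each RefSeq transcript in each of 6 libraries. The deposited log2 expression values of the same rows have the same maximum in all 6, as quantile normalization would give, a step that no label states. The deposited table also holds the authors' edgeR log2 fold change and false discovery rate (an adjusted p-value). The submitters' processing notes name mm9 and edgeR, while aligner, counter and strand are not given in the sources used here. One row per symbol was kept, that with the highest total count. Counts were tested with edgeR 4.0.16 in R 4.3.3: filterByExpr (minimum count 10, minimum total 15) left 15314 genes, libraries were scaled by TMM, and the quasi-likelihood F test had 4 residual degrees of freedom, with Benjamini-Hochberg adjustment over all genes tested. SE is the absolute log2 fold change over the square root of F. On simulated counts over 14882 genes, the fit recovered 84% of genes changed by a log2 fold of 2 and 100% of those changed by 4. It made 12 false calls. The changed genes were drawn from the better expressed ones, so these rates do not cover genes as scarce as Tlx3 and Pou4f3. Both groups were simulated with the same dispersions. In the data, replicate pairs differed by more than sampling noise. Chi-square per degree of freedom was 13.4 to 21.9 for mechanoreceptor pairs and 31.9 to 68.5 for midline pairs. Lengths came from GENCODE M21 and covered 97.9% of genes tested. The 9 genes and the other gene lists were chosen with earlier results of these data known. The genes named from each other list are, by mean CPM, up to 4 called in its more common direction, up to 2 called the opposite way and 1 that did not pass. Some further genes were chosen outside this rule after their values were seen: Six4, Runx1, Runx3, Klf7, Ldb1, Elavl4, Nefh, Dbh and those at or near 0. Nearest genes are the 3 at the smallest distance. Some genes that these rules name are not reported here. Alternatives were DESeq2 1.42.0, limma 3.58.1 (voom, and on the deposited log2 values), upper-quartile scaling, other filters, the authors' best row, and leaving out each library.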

Additional observations from a re-analysis of the deposited data

How the results depend on the processing

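Over 13 alternatives for each of the 9 genes, 108 of 117 fits kept the direction and the side of the threshold. The call was lost in 9 (4 for Tlx3 and 5 for Eya2), and 0 reversed. Some of these outcomes were fixed in advance. Each of the 9 genes has 1 transcript row, so the authors' best row left its counts as they were. Pou4f3, with 0 midline counts, could not reverse. The 8 genes higher in mechanoreceptors numbered 7 to 8 with a library left out and 8 under every other alternative. The 1 higher in the midline, Eya2, numbered 0 on the deposited log2 values and 0 to 1 with a library left out. The count of all genes called, 5788, lay from 3755 to 6182 with a library left out. Upper-quartile scaling moved the median of all genes from -0.049 to -0.26 and the share of calls toward mechanoreceptors from 49.9% to 36.9%, and every one of the 9 genes kept its direction and call under it. Midline counts were few for Pou4f2, Pou4f3, Isl2, Tlx2, Tlx3 and Prrxl1 (0 to 15 summed over libraries), and the sizes of their folds rest on these counts. Their direction held in all 13 alternatives, though Tlx3 lost its call in 4. All of them passed the main filter through the mechanoreceptor libraries, where they were high. No paired analysis was possible because the groups share only 1 replicate number. The causes of the changes were not tested.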

Other observations

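The remaining lists gave smaller counts. Of 8 tested relatives of Tlx and Prrxl1, the midline had the higher level in 3 and mechanoreceptors in 0, among them Prrx1 (log2 fold change -5.17, adjusted p = 0.00367), a mesenchymal relative of Prrxl1 that stood at 146, 17.6 and 34.7 CPM in midline libraries 2, 3 and 5, and Pbx3 (-2.89, adjusted p = 0.00222). Of 8 tested neurogenic bHLH and SoxC genes, the midline had the higher level in 4 (2 to 6 over the alternatives) and mechanoreceptors in 1 (0 to 2). Neurod2 (log2 fold change -8.55, adjusted p = 0.00241) and Neurod6 (-6.71, adjusted p = 0.00392) were highest in midline library 3, at 81.0 and 122 CPM. Sox12, the 1 higher in mechanoreceptors (0.86, adjusted p = 0.0492), lost its call under 6 alternatives. Of 4 motor neuron genes tested, 3 had more in mechanoreceptors, Isl1 and Isl2 among them, and Mecom had more in the midline. Of 8 Schwann cell and satellite glia genes, 2 had more in mechanoreceptors (0 to 4 over the 13 alternatives) and Fabp7 had more in the midline. Of 6 sympathetic neuron genes tested, Slc6a2 passed, with more in the midline (log2 fold change -2.67, adjusted p = 0.0205), and lost its call under 4 of 13 alternatives (0.0554 to 0.0805). Gata2 (adjusted p = 0.08) passed with DESeq2 (0.0341), and Dbh (0.199) without mechanoreceptor library 2 (0.0337).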
